A study of Mus musculus with 4 samples.

Results

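The barcodes described here are sorted tumor myeloid cells that held much arginase 1 RNA (Arg1) and almost no C1q RNA, a complement transcript group of mature tumor macrophages. They were chosen by raw transcript counts (UMIs, unique molecular identifiers): at least 10 of Arg1, at most 2 of C1qa, C1qb and C1qc together, fewer than 10 of S100a8 and S100a9, fewer than 5 of Ncr1, Klrb1c, Gzma and Prf1, fewer than 2 of Cd209a and fewer than 4 of Ccr7, Fscn1 and Cacnb3. The last 4 limits left out neutrophils, NK cells and dendritic cells. Of 25333 kept barcodes, 1404 met the rule, 759 of 15140 in the VISTA KO library and 645 of 10193 in the WT library. They are called Arg1-high C1q-low barcodes, or members. They are set against 2136 VISTA KO and 2530 WT barcodes with 0 Arg1 UMIs that passed every other limit, called Arg1-zero. Since the rule used RNA counts of these barcodes, the levels of its 14 genes are descriptions.

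VISTA, the product of Vsir, restrains T cells and is carried by myeloid cells, and the series title links its loss in myeloid-derived suppressor cells to STAT3 and polyamines. Both groups were C57/BL6 mice rebuilt with donor marrow for 6 weeks, one with VISTA KO and the other with WT marrow, and then inoculated with MC38, a mouse colon carcinoma line. Tumors of 9 to 10 mm were pooled, donor genotypes were separated by the CD45.1 and CD45.2 forms of CD45, and live cells bearing CD11b were sorted. Each group was 1 pool and 1 library, with 3 antibody tags read from the same barcodes, so no test, standard error or replicate spread can be given, and every interval covers counting error only. The deleted part of Vsir, the CD45 form of each genotype, the recipients' own genotype and the number of mice per pool are not given by the labels.

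Arginase 1 splits arginine into ornithine and urea. Monocytes enter tumors as Ly6C+ CCR2+ cells and many become macrophages there. Arginase made by them removes the arginine that T cells need, and ornithine feeds polyamine synthesis. In mouse macrophages Arg1 RNA is known to be induced by interleukin 4 through STAT6, by cAMP, by lactate and by low oxygen through the HIF factors, which also raise glycolytic enzymes and the mitophagy receptor Bnip3. Inducible nitric oxide synthase (Nos2) draws on the same arginine and is classically found in macrophages stimulated with interferon gamma and bacterial products.

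Surface protein was read with 3 antibodies whose DNA tags are shown because the Ly6C tag is the measure of monocyte identity that the choice of members did not use. The oligos, 5′ to 3′ as deposited, were the following.
Ly6C: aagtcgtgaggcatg
CD11c: gttatggacgcttgc
Ly6G: acattgacgcaacta

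Members had higher Ly6C tag counts than Arg1-zero barcodes in both libraries, and the CD11c and Ly6G tags were higher too. The median Ly6C tag count per barcode was 1175 in Arg1-high C1q-low barcodes of VISTA KO (quartiles 688 and 1949.5) against 791 in Arg1-zero barcodes (451 and 1322). In WT it was 1561 (828 and 2557) against 711 (378 and 1212). Members were deeper than Arg1-zero barcodes in gene UMIs, with medians of 4846 against 2888.5 in VISTA KO and 4953 against 4093 in WT, and among barcodes of 3000 to 10000 UMIs the Ly6C medians were 1118.5 against 662 in VISTA KO and 1501 against 745 in WT. Arg1-high barcodes with more than 2 C1q UMIs, at median depths of 7429 and 7333 UMIs, had higher Ly6C medians than members, 1370.0 in VISTA KO and 1698.5 in WT. Barcodes with NK gene counts of at least 10 had lower medians, 177.5 in VISTA KO and 189 in WT. A Ly6c2 UMI was found in 61.2% and 38.2% of them, so they may carry Ly6C and do not set a background of the tag. The medians of members thus lay above those of Arg1-zero and NK barcodes in both libraries, while the quartile ranges of members and Arg1-zero barcodes overlapped. CD11c medians were 14 against 6 in VISTA KO and 12 against 5 in WT, and Ly6G medians 5 against 3 and 7 against 3. Among barcodes of 3000 to 10000 UMIs, CD11c medians were 13 against 5 in VISTA KO and 11 against 4 in WT. Ly6G medians there were 5 against 2 in VISTA KO and 7 against 3 in WT. Whether members gained Ly6C protein or tag counts in general was not tested. Across members the Ly6C tag and the Ly6c2 UMIs of a barcode had a Spearman correlation of 0.58 in VISTA KO (n = 759) and 0.42 in WT (n = 645); both counts come from 1 barcode, and the tag followed its gene UMI total with 0.18 and 0.16.

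**Figure D1:**
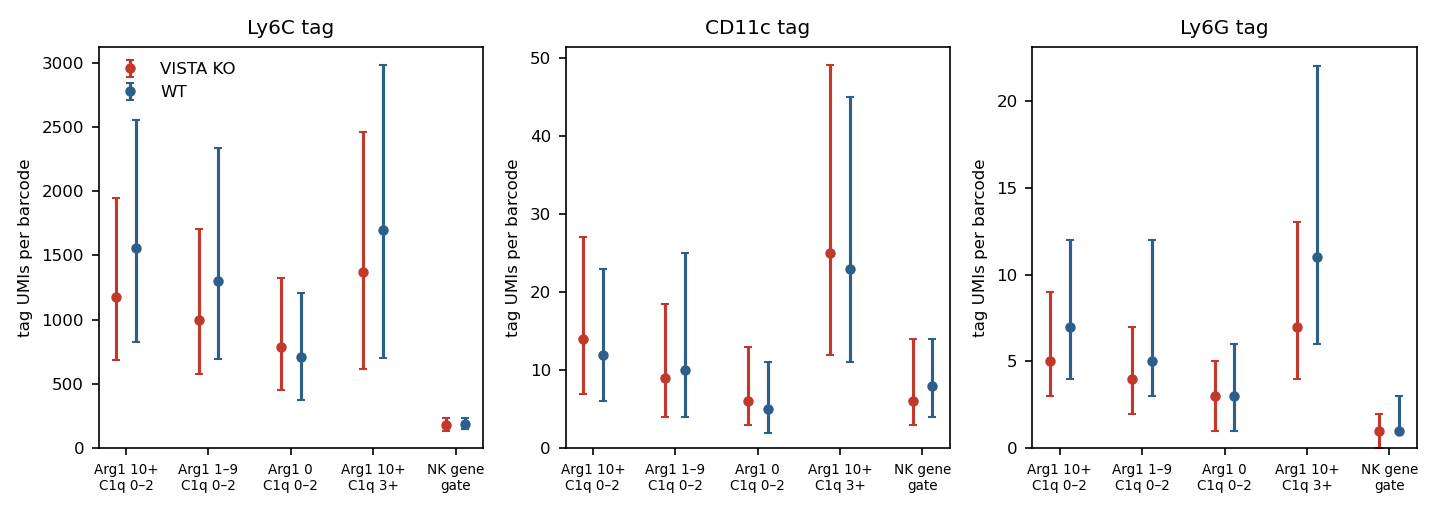
Antibody tag UMIs per barcode (linear axes) for Ly6C, CD11c and Ly6G in 5 sets of barcodes, VISTA KO in red left of WT in blue; points are medians and bars run between the quartiles. The Ly6C medians of Arg1-high C1q-low barcodes, 1175 in VISTA KO and 1561 in WT, lie above those of Arg1-zero barcodes, 791 and 711, and far above those of NK barcodes.

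RNA showed monocyte genes together with macrophage transcripts. Ly6c2, the Ly6C2 antigen, stood at 3162 CPM (UMIs per 1000000 UMIs of the summed barcodes) in VISTA KO and 4023 CPM in WT members, against 996 and 714 CPM in NK barcodes. Its reads may be shared with the near-identical Ly6c1. Ccr2, the receptor that brings monocytes into tissue, stood at 880.2 CPM in members and 999 CPM in Arg1-zero barcodes of VISTA KO, and at 769 and 761 CPM in WT. A Ccr2 UMI was found in 91.96% of VISTA KO and 89.9% of WT members, against 67.9% and 53.6% of the shallower NK barcodes. At least 1 Ly6c2 UMI was found in 95.5% of VISTA KO and 96.4% of WT members, against 91.6% and 87.5% of Arg1-zero and 61.2% and 38.2% of NK barcodes (median depths 2556 and 2279.5 UMIs), and 34 VISTA KO and 23 WT members had none. Of 20 monocyte genes in a fixed list, however, 10 were lower and 2 higher in members than in Arg1-zero barcodes of VISTA KO, and 9 were lower and 4 higher in WT. A listed gene counts as higher or lower at a log2 ratio of 0.32 or more in either direction with a 95% interval that leaves out 0; 14.4% of all genes with 20 UMIs or more were higher and 14.2% lower by that rule in VISTA KO, and 13.3% and 16.4% in WT. Of 21 macrophage genes other than C1q, 17 were higher in VISTA KO and 19 in WT, and none was lower in either. The Ly6C tag counts and Ly6c2 of members were above the NK level, and Ccr2 was near its Arg1-zero level. The other monocyte and macrophage genes go in part against the label of monocyte, so the barcodes are named by their rule.

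Among the early monocyte genes, Ifitm6, an interferon-induced membrane protein of monocytes, was at 126 CPM in Arg1-high against 399.9 CPM in Arg1-zero barcodes of VISTA KO (log2 ratio -1.66, -1.80 to -1.53), and 147 against 469 CPM in WT (-1.67, -1.80 to -1.55). Haptoglobin (Hp) stood at 169 against 419 CPM in VISTA KO and 198 against 583 CPM in WT. Vcan, the matrix proteoglycan versican, had log2 ratios of -1.33 in VISTA KO and -0.72 in WT. All 3 were lower in members of both libraries. Ly6c2 itself was 3788 CPM in Arg1-zero barcodes of VISTA KO and 3246 CPM in WT, log2 ratios of -0.26 in VISTA KO and 0.31 in WT, neither past the rule. Fn1 (fibronectin) and Ly6a (Sca-1) were the monocyte list genes higher in both, Fn1 at 970.0 against 659 CPM in VISTA KO and 928 against 711 CPM in WT.

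Among the macrophage genes, Apoe, a lipid carrier, was at 5578 CPM in Arg1-high against 2091 CPM in Arg1-zero barcodes of VISTA KO (log2 ratio 1.42, 1.38 to 1.45), and 3094 against 559 CPM in WT (2.47, 2.42 to 2.51). Ms4a7, a membrane protein of tissue macrophages, was at 396 against 106 CPM in VISTA KO and 282 against 21.2 CPM in WT. Trem2, a lipid-sensing receptor, was at 393 against 96.4 CPM in VISTA KO and 322 against 68.1 CPM in WT. Each was higher in members of both libraries, yet each was below the level of Arg1-high barcodes with more than 2 C1q UMIs, at 500.3 CPM in VISTA KO and 508 CPM in WT for Trem2. Csf1r, the receptor for macrophage colony-stimulating factor, had log2 ratios of 0.18 in VISTA KO and 0.60 in WT, past the rule in WT and not in VISTA KO; the difference between libraries was not tested. The summed macrophage list was 10227 in Arg1-high and 4125 CPM in Arg1-zero barcodes of VISTA KO, and 7356 and 1990.3 CPM in WT, against 2928 CPM in NK barcodes of VISTA KO and 1521 CPM in those of WT. How much of the NK sum is RNA of the NK cells themselves was not tested. A Spp1 UMI was found in 27.1% of VISTA KO and 16.7% of WT NK barcodes, against 15.5% and 9.09% of Arg1-zero barcodes.

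Most markers of other cell types were low in members. The summed B cell list was 23.3 against 76.1 CPM in VISTA KO and 24.04 against 342 CPM in WT (members first), the mast cell and basophil list 13.1 against 97.1 CPM in VISTA KO and 6.21 against 110.2 CPM in WT, and the dendritic cell list 130.2 against 209 CPM in VISTA KO and 98.1 against 225 CPM in WT. The T cell list summed to 93.3 against 67.4 CPM in VISTA KO and 70.5 against 293 CPM in WT, of which Il7r gave 80.3 and 60.2 CPM of the members' sum. Cd3d, Trac and Cd8a were lower in WT members. The NK list was 1681 against 1676 CPM in VISTA KO and 570.3 against 824 CPM in WT, mostly Ccl5, which monocytes also make. The neutrophil list was 373 against 416 CPM in VISTA KO and 453 against 430.4 CPM in WT, the fibroblast list 17.1 against 21.6 CPM in VISTA KO and 9.996 against 20.9 CPM in WT and the erythroid list 0.475 against 1.45 CPM in VISTA KO and 1.35 against 2.02 CPM in WT. The tumor epithelium list came from Cdh1 alone (30.2 CPM in VISTA KO and 10.5 CPM in WT members), with Epcam, Krt8, Krt18, Krt19, Krt20, Cldn4 and Cldn7 at 0 UMIs in members. By summed RNA, Arg1-zero barcodes of WT held more of the T, B and mast cell lists than members. By barcodes, 9.88% of members and 2.53% of Arg1-zero barcodes of VISTA KO held 2 or more UMIs of the T cell list, and 8.84% and 5.81% in WT, with Il7r in the list and no thinning to like depth. Leaving out barcodes with 2 or more UMIs of the T, B, mast cell, fibroblast or epithelium list kept 643 of 759 and 568 of 645 members, and the genes counted in the ratios below were then 503 higher and 517 lower in VISTA KO and 580 higher and 601 lower in WT.

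Members made up 5.01% of kept VISTA KO barcodes (exact 95% interval 4.67% to 5.37%) and 6.33% of kept WT barcodes (5.86% to 6.82%). As shares of the barcodes that passed every limit except that on Arg1, they were 13.8% and 14.4%. Arg1-high barcodes with more than 2 C1q UMIs were 20.3% of VISTA KO and 11.5% of WT barcodes. The C1q limit did not act alike in both libraries. Among NK barcodes, which should lack C1q, 77.6% of 558 in VISTA KO (73.9% to 81.0%, median depth 3068.5 UMIs) held a C1q UMI, against 36.0% of 627 in WT (32.3% to 39.9%, 2643 UMIs), and 35.8% against 15.2% held more than 2. Members with no C1q UMI at all were 194 of 759 in VISTA KO and 391 of 645 in WT, and a limit of 0 made members 1.28% of VISTA KO and 3.84% of WT barcodes. Free RNA and doublets in these NK barcodes were not told apart, and their part in the share of members was not tested. Arg1, which NK cells should lack, was found in them as well: 43.3% of 358 NK barcodes in VISTA KO held an Arg1 UMI and 12.6% of 532 in WT, while 7 and 12 of them held 10 or more. Barcodes with 5 or more UMIs of a T cell gene list and at most 2 of C1q numbered 189 in VISTA KO and 274 in WT. An Arg1 UMI was found in 63.5% and 21.2% of them, and 22 (11.6%) and 15 (5.47%) held 10 or more. The list includes Il7r, which members also held, and free RNA and doublets were not told apart here either.

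Arg1 itself, on chromosome 10 (chr10:24915207-24927470, GRCm38.p6), had a median of 18 UMIs per member in VISTA KO (quartiles 13 and 29, highest 122) and 19 in WT (13 and 28, highest 110). Summed, this was 4150.2 CPM in VISTA KO and 4112 CPM in WT members. Arg1-high barcodes with more than 2 C1q UMIs had 3277 and 3478 CPM. Members held 11.8% of all Arg1 UMIs of the VISTA KO library and 14.5% of those of WT. At the edge of the rule, 70 VISTA KO and 45 WT members had exactly 10 Arg1 UMIs, and 71 and 52 barcodes outside it had 9. Bnip3 was at 268 CPM just inside and 221 CPM just outside in VISTA KO, and at 391 and 388 CPM in WT. At the C1q limit, 250 VISTA KO and 71 WT members had a C1q sum of 2, and 134 and 32 Arg1-high barcodes had 3; Bnip3 was 288 CPM inside and 255 CPM outside in VISTA KO, and 393 and 365 CPM in WT.

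Vsir, the deleted gene (chr10:60346851-60430294), was at 58.7 CPM in VISTA KO and 158 CPM in WT members (log2 ratio -1.43, -1.65 to -1.22). It was at 33.2 CPM in VISTA KO and 121 CPM in WT Arg1-zero barcodes. A Vsir UMI was found in 25.03% of VISTA KO and 53.3% of WT members, and in 2.79% and 11.5% of NK barcodes at median depths of 2556 and 2279.5 UMIs. The libraries therefore differ in the direction of their labels, and VISTA KO members still held Vsir reads; a read from the 3′ end does not check a deletion elsewhere in the gene. The libraries held 80366761 gene UMIs over 15257 barcodes for VISTA KO and 61753547 over 10241 for WT. In all, 47 barcode sequences occurred in both, 3 of them members in VISTA KO and 5 in WT. Doublets were not called; no VISTA KO and 1 WT member exceeded 20000 UMIs.

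Set against Arg1-zero barcodes, members held more RNA of several secreted matrix proteins and of the CCR2 ligands, of hypoxia genes and of glycolytic enzymes, and less of early monocyte, STAT3-axis and interferon-gamma genes. At 1.5-fold or more with an interval that left out 1, among genes with 100 UMIs or more, 549 genes (8.05%) were higher and 506 (7.42%) lower in VISTA KO, of 6824. In WT 623 (8.51%) were higher and 687 (9.38%) lower, of 7325. A mean of per-barcode CPM in place of summed counts gave 506 higher and 779 lower in VISTA KO and 581 and 854 in WT. Of 6751 genes with enough UMIs in both libraries, 352 were higher in both, 66.7% of the VISTA KO and 60.6% of the WT genes, and 300 were lower in both, 60.2% and 54.8%. H19 alone was past the rule in opposite directions. Across these genes, which are not independent replicates, the log2 ratios of both libraries had a Pearson r of 0.80 and a Spearman rho of 0.70.

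**Figure D2:**
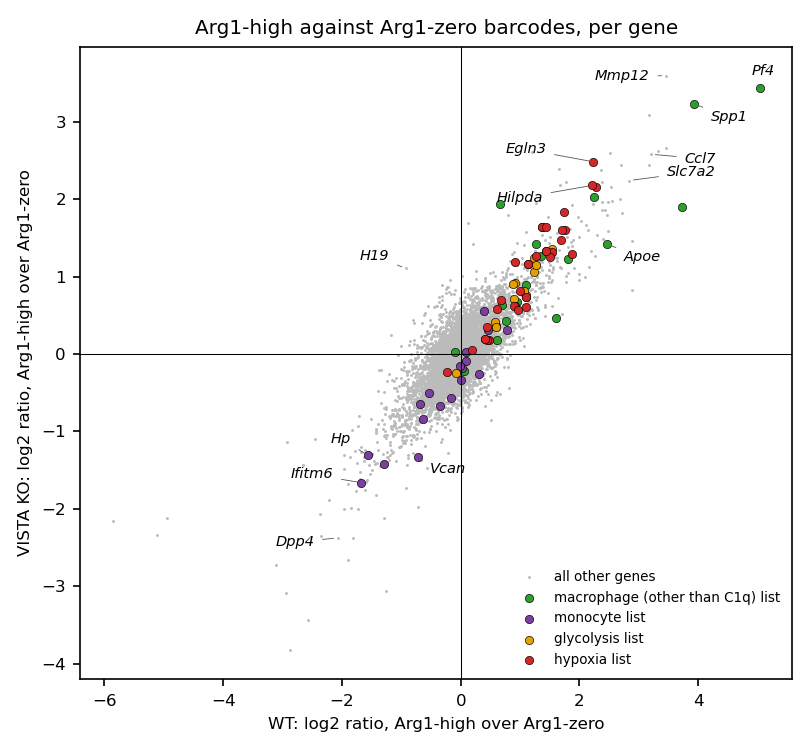
Each point is 1 of 6751 genes, with the log2 ratio of Arg1-high over Arg1-zero barcodes in WT on the horizontal and in VISTA KO on the vertical axis; genes of 4 lists are coloured and the genes used to choose barcodes are left out. Most genes of the hypoxia and macrophage lists lie in the upper right, as do Pf4, Mmp12 and Spp1, and Dpp4, Ifitm6 and Hp lie in the lower left.

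The 15 highest genes, ranked by the smaller ratio of both libraries, were led by secreted proteins. Mmp12, the macrophage elastase, was at 95.2 CPM in Arg1-high against 7.74 CPM in Arg1-zero barcodes of VISTA KO (log2 ratio 3.60, 3.19 to 4.08), and 58.6 against 5.28 CPM in WT (3.45, 3.04 to 3.93). Pf4, the chemokine CXCL4, was at 339.7 CPM in Arg1-high against 31.1 CPM in Arg1-zero barcodes of VISTA KO (log2 ratio 3.44, 3.23 to 3.67), and 528 against 16.03 CPM in WT (5.03, 4.81 to 5.28). Spp1 (osteopontin) was at 705 CPM in Arg1-high against 75.1 CPM in Arg1-zero barcodes of VISTA KO (log2 ratio 3.23, 3.09 to 3.37), and 679 against 44.3 CPM in WT (3.93, 3.79 to 4.08). All 3 had log2 ratios above 3 in both libraries, but in few barcodes: the tenth of members with the most UMIs held 97.3% of Mmp12 UMIs in VISTA KO and every Mmp12 UMI in WT, 88.8% and 93.2% of Pf4 UMIs, and 77.4% and 72.1% of Spp1 UMIs. F7, clotting factor VII, was at 49.6 against 9.03 CPM in VISTA KO and 29.99 against 3.26 CPM in WT. Pdpn (podoplanin) was at 44.7 against 6.93 CPM in VISTA KO and 35.7 against 3.17 CPM in WT, and Rhoc, a small GTPase of cell motility, at 50.6 against 8.22 CPM in VISTA KO and 47.5 against 8.25 CPM in WT. Tmem37 was at 98.1 against 18.7 CPM in VISTA KO and 35.4 against 6.81 CPM in WT, and Cox7a1, a subunit of cytochrome c oxidase, at 18.5 against 3.87 CPM in VISTA KO and 19.2 against 3.65 CPM in WT. Ccl7, Mgarp, Slc7a2, Egln3, Hilpda and Selenbp1 were also among the 15 and are described with their groups.

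The 12 lowest genes included Dpp4, a surface peptidase also of dendritic cells, at 4.51 CPM in Arg1-high against 24.5 CPM in Arg1-zero barcodes of VISTA KO (log2 ratio -2.38, -3.21 to -1.75), and 4.59 against 20.3 CPM in WT (-2.07, -2.95 to -1.43). Ifitm1 was at 318 against 1129 CPM in VISTA KO and 423 against 1137 CPM in WT, and Tmem176b, a membrane protein of immature dendritic cells, at 35.4 against 99.5 CPM in VISTA KO and 12.7 against 50.3 CPM in WT. Grk3, a kinase of G protein-coupled receptors, had log2 ratios of -1.43 in VISTA KO and -1.54 in WT, and Dusp2, a phosphatase of MAP kinases, of -1.55 in VISTA KO and -1.53 in WT. Ighm, the immunoglobulin heavy chain of B cells, had -1.68 in VISTA KO and -1.68 in WT; the B cell list moved with it, as given above. Tspan13, Gramd3, Stxbp6, Pi16 and Dmkn completed the list with Ifitm6. All 12 were lower in members of both libraries, which is how the rule chose them.

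Hypoxia genes stood mostly on 1 side, with 27 of 34 measured genes higher and 0 lower in VISTA KO (median log2 ratio 1.12), and 30 of 34 higher and 1 lower in WT (median 1.11), against medians over all genes of 0.02 and -0.03. Bnip3, a receptor for removal of mitochondria, was at 297 CPM in Arg1-high against 97.4 CPM in Arg1-zero barcodes of VISTA KO (log2 ratio 1.61, 1.47 to 1.75), and 357 against 105 CPM in WT (1.76, 1.65 to 1.88). Hilpda, a lipid droplet protein that inhibits fat breakdown, was at 263 CPM in Arg1-high against 58.1 CPM in Arg1-zero barcodes of VISTA KO (log2 ratio 2.18, 2.01 to 2.36), and 393 against 84.7 CPM in WT (2.21, 2.09 to 2.34). Egln3, an oxygen-sensing prolyl hydroxylase that marks HIF factors for breakdown, was at 44.9 against 7.90 CPM in VISTA KO and 56.2 against 11.998 CPM in WT. Each of the 3 stood higher in the members of both libraries than in the Arg1-zero barcodes of either. Thinned to 2000 UMIs, a Hilpda UMI was found in 26.3% of VISTA KO and 35.0% of WT members. It was found in 7.44% and 10.0% of Arg1-zero barcodes and in more NK barcodes, 16.9% and 12.8%. Bnip3 was found in 40.2% and 47.0% of members, 15.3% and 14.9% of Arg1-zero and 7.69% and 5.94% of NK barcodes. Mgarp, a protein of mitochondrial distribution that is not on the list, was at 32.3 against 5.81 CPM in VISTA KO and 35.4 against 5.38 CPM in WT. Selenbp1, a methanethiol oxidase, was at 53.2 against 11.8 CPM in VISTA KO and 79.96 against 16.4 CPM in WT. Ero1l, an oxidase of the endoplasmic reticulum, was at 223 against 73.2 CPM in VISTA KO and 291 against 89.5 CPM in WT, and Fam162a at 283 against 79.3 CPM in VISTA KO and 390.4 against 117 CPM in WT. Vegfa, the vessel growth factor, was at 160.1 against 65.5 CPM in VISTA KO and 112 against 30.5 CPM in WT. Mif, a secreted inhibitor of macrophage migration, was at 1523 against 547 CPM in VISTA KO and 1589 against 493 CPM in WT. Hif1a itself was not higher, with 438 against 517 CPM in VISTA KO and 368 against 433 CPM in WT (log2 ratios -0.24 in VISTA KO and -0.24 in WT), and Rora was the list gene lower in WT.

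Glycolytic enzymes moved with them: 15 of 19 measured genes higher and 0 lower in VISTA KO (median log2 ratio 0.82), and 16 of 19 higher and 0 lower in WT (median 1.07). Gapdh was at 3277 against 1384 CPM in VISTA KO and 4424 against 1889.6 CPM in WT, Pgk1 (phosphoglycerate kinase) at 980.0 against 389 CPM in VISTA KO and 1137 against 419 CPM in WT, and Ldha, which makes lactate from pyruvate, at 1245 against 557 CPM in VISTA KO and 1406 against 643 CPM in WT. Their log2 ratios were 1.24 in VISTA KO and 1.23 in WT for Gapdh, 1.33 in VISTA KO and 1.44 in WT for Pgk1 and 1.16 in VISTA KO and 1.13 in WT for Ldha. Slc2a1, the glucose transporter GLUT1, had log2 ratios of 0.73 in VISTA KO and 1.10 in WT. The enzyme Pfkp was an exception with -0.24 in VISTA KO and -0.09 in WT. Nuclear genes of oxidative phosphorylation showed 2 of 44 measured genes higher and 1 lower in VISTA KO (median log2 ratio 0.04), and 1 of 44 higher and 7 lower in WT (median -0.08).

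Promoters of Bnip3, Hilpda and Egln3 of the hypoxia list, and of Mgarp outside it, are shown. The reason is that the HIF factors bind a short core, ACGTG, in low oxygen. The windows below hold 250 bases before and 50 after a gene's start, from RefSeq on GRCm38.p6, 5′ to 3′ on the strand of the gene; capitals mark ACGTG on either strand, so CACGT is its reverse complement and CACGTG in Bnip3 holds it on both strands at overlapping positions. Bnip3 lies on the minus strand at chr7:138909457-138909756, Hilpda on the plus strand at chr6:29272376-29272675 (the window of an earlier start, chr6:29272238-29272537, holds no ACGTG), Egln3 on the minus strand at chr12:54203825-54204124 and Mgarp on the minus strand at chr3:51396498-51396797.
Bnip3: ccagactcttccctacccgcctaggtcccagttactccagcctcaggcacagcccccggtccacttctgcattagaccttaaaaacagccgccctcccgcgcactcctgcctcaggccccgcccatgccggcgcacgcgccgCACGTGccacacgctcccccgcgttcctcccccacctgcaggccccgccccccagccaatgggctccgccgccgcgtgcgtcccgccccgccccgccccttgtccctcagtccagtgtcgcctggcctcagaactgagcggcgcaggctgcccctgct
Hilpda: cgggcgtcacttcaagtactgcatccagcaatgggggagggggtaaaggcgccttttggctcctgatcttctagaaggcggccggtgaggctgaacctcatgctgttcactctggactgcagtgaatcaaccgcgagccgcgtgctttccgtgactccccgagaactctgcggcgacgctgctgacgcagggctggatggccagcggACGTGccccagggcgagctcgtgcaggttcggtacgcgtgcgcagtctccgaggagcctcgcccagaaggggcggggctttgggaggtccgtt
Egln3: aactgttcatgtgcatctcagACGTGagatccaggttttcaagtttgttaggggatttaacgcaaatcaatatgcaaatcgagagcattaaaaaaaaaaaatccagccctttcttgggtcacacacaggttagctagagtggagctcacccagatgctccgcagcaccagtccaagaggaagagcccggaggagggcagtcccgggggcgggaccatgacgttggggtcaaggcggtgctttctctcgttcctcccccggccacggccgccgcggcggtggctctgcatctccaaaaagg
Mgarp: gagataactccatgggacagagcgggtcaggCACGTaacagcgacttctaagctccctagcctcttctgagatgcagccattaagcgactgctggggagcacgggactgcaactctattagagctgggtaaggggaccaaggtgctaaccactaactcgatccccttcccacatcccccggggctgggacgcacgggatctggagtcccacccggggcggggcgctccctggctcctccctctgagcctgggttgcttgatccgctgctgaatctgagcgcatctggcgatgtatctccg

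A gene counts as holding a motif if the window of any of its starts does. Of the hypoxia list, 32 of 35 genes had a window in the table, and 27 of these (84.4%) held ACGTG on either strand. Of the 24 with a window that were higher in members of both libraries, 22 (91.7%) held it. Over all 27025 genes with a window the share was 21.8%. The related core GCGTG was found in 24 of 32 (75%) against 35.2% of all genes. The 15 highest genes above held ACGTG in 7 of the 12 with a window (58.3%) and GCGTG in 3 of them (25%). Among those 7, Egln3, Hilpda and Selenbp1 are also on the hypoxia list, so the 2 shares are not separate. The windows of Spp1 and Mmp12 held none, at chr5:104434861-104435160 and chr9:7344147-7344446 and at a later start of each gene. The hypoxia list was put together from known targets, so the share describes the list, and a match is not a site of binding.

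Chemokine genes divided. The list had 10 of 19 measured genes higher and 5 lower in VISTA KO (median log2 ratio 0.50), and 10 of 19 higher and 6 lower in WT (median 0.37). The ligands of CCR2 stood high: Ccl2 at 3284 CPM in Arg1-high against 1179 CPM in Arg1-zero barcodes of VISTA KO (log2 ratio 1.48, 1.44 to 1.52), and 4904 against 1576 CPM in WT (1.64, 1.61 to 1.67), and Ccl7 at 1353 CPM in Arg1-high against 226 CPM in Arg1-zero barcodes of VISTA KO (log2 ratio 2.58, 2.50 to 2.67), and 2013 against 218 CPM in WT (3.21, 3.14 to 3.28). Ccl12 was at 910.4 against 227 CPM in VISTA KO and 1346 against 211 CPM in WT. These 3 genes are close relatives, and reads may be split between them. Cxcl2, which draws neutrophils, was at 367 against 106 CPM in VISTA KO and 753 against 434 CPM in WT. The interferon-induced T cell attractant Cxcl10 was lower, at 1522 against 2728 CPM in VISTA KO and 1578 against 2599 CPM in WT, as were Ccl3, Ccl4, Ccl17 and Ccl22 in both libraries. Ccl5 was not past the rule in either, at 1596 against 1453 CPM in VISTA KO and 487 against 449.8 CPM in WT. The list median in WT was -0.05 with a mean of per-barcode CPM, the other sign from the summed counts, so no direction is given for the list.

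Genes of matrix breakdown, iron and lysosomes also stood higher in members. The matrix protease, adhesion and clotting list had 15 of 27 measured genes higher and 5 lower in VISTA KO (median log2 ratio 0.44), and 13 of 27 higher and 3 lower in WT (median 0.39), with Mmp13, Mmp14, Timp2, Plau, F10, Tgfbi and Cd9 higher in both libraries. The list of NRF2, heme, iron and metallothionein genes had 12 of 20 measured genes higher and 3 lower in VISTA KO (median log2 ratio 0.76), and 10 of 21 higher and 3 lower in WT (median 0.70). Hmox1, the heme oxygenase, was at 404 CPM in Arg1-high against 86.8 CPM in Arg1-zero barcodes of VISTA KO (log2 ratio 2.22, 2.08 to 2.36), and 319 against 93.8 CPM in WT (1.77, 1.64 to 1.89), and Fth1, the ferritin heavy chain, at 16667 against 9579.8 CPM in VISTA KO and 12918 against 7002 CPM in WT. The metallothioneins Mt1 and Mt2, which are near copies of each other, were both higher, Mt1 at 480.3 against 124 CPM in VISTA KO and 384 against 159.6 CPM in WT. Lysosomal proteases had 12 of 19 measured genes higher and 1 lower in VISTA KO (median log2 ratio 0.46), and 15 of 18 higher and 0 lower in WT (median 0.61); Ctsl (cathepsin L) was at 619 against 162 CPM in VISTA KO and 643 against 137 CPM in WT and Lgmn (legumain) at 827 against 294 CPM in VISTA KO and 644 against 123 CPM in WT. With a mean of per-barcode CPM the matrix list medians were 0.09 in VISTA KO and 0.12 in WT, and the NRF2 and iron median 0.19 in WT. Lipid genes had 10 of 22 measured genes higher and 3 lower in VISTA KO (median log2 ratio 0.26), and 12 of 23 higher and 4 lower in WT (median 0.34).

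Genes around arginine went with Arg1 in part: 8 of 18 measured genes higher and 2 lower in VISTA KO (median log2 ratio 0.23), and 7 of 18 higher and 2 lower in WT (median 0.26). By the same rule 14.4% of all genes were higher and 14.2% lower in VISTA KO, and 13.3% and 16.4% in WT. Slc7a2, the arginine transporter CAT2, was at 79.8 CPM in Arg1-high against 16.8 CPM in Arg1-zero barcodes of VISTA KO (log2 ratio 2.24, 1.93 to 2.58), and 32.7 against 4.51 CPM in WT (2.84, 2.36 to 3.38). Gatm, which makes guanidinoacetate from arginine, was at 389 against 142 CPM in VISTA KO and 318 against 87.4 CPM in WT. Nos2, which turns arginine into nitric oxide, was at 92.9 CPM in Arg1-high against 25.5 CPM in Arg1-zero barcodes of VISTA KO (log2 ratio 1.86, 1.60 to 2.14), and 94.8 against 17.5 CPM in WT (2.44, 2.18 to 2.71). These 3 were higher in both libraries. Arg2, the mitochondrial arginase, was not past the rule, at 20.4 against 18.1 CPM in VISTA KO and 15.4 against 15.7 CPM in WT, nor was Ass1, which rebuilds arginine from citrulline, at 289 against 271 CPM in VISTA KO and 276 against 233 CPM in WT. Gch1, which makes the cofactor of nitric oxide synthase, was lower in VISTA KO, with log2 ratios of -0.35 in VISTA KO and -0.24 in WT; its difference between the libraries was not tested. Slc7a1, the constitutive transporter CAT1, had 6.18 CPM in VISTA KO and 8.37 CPM in WT members.

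Nos2 and Arg1 occurred in the same barcodes. A Nos2 UMI was found in 189 of 759 VISTA KO members (24.9%) and 156 of 645 WT members (24.2%), against 5.01% and 3.32% of Arg1-zero barcodes. NK barcodes, which should lack it, had 3.07% and 0.940%. With every barcode thinned to 2000 UMIs, the shares were 12.6% of members against 3.16% of Arg1-zero barcodes in VISTA KO and 14.7% against 2.08% in WT; 20 VISTA KO and 19 WT members and 805 and 411 Arg1-zero barcodes were shallower and left out. Members with a Nos2 UMI had slightly more Arg1 than those without, 4431 against 4049 CPM in VISTA KO and 4368 against 4022 CPM in WT, at median depths of 5190 against 4765.5 and 5049 against 4910 UMIs. They also held more Slc7a2, 110.3 against 68.8 CPM in VISTA KO and 51.3 against 26.2 CPM in WT. Hilpda was at 395 against 216 CPM in VISTA KO and 646 against 304 CPM in WT, and Bnip3 at 398 against 260.4 CPM in VISTA KO and 499 against 308 CPM in WT. Ccl7 ran the other way, at 1161 against 1422 CPM in VISTA KO and 1428 against 2216 CPM in WT.

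Polyamine genes gave 5 of 18 measured genes higher and 2 lower in VISTA KO (median log2 ratio 0.19), and 3 of 18 higher and 4 lower in WT (median -0.10). Over all genes 14.4% were higher and 14.2% lower by that rule in VISTA KO, and 13.3% and 16.4% in WT. Atp13a2, a lysosomal polyamine exporter, was at 80.99 against 46.4 CPM in VISTA KO and 43.2 against 33.02 CPM in WT, and Paox, a polyamine oxidase, had log2 ratios of 1.03 in VISTA KO and 0.83 in WT; both were higher in both libraries. Azin1, the inhibitor of antizyme, had -0.44 in VISTA KO and -0.37 in WT and Atp13a3, a polyamine uptake transporter, -0.58 in VISTA KO and -0.61 in WT; both were lower in both. Odc1, ornithine decarboxylase, went opposite ways, higher in VISTA KO at 46.8 against 34.3 CPM and lower in WT at 46.2 against 59.5 CPM. Members of both libraries held near equal levels of it, and the Arg1-zero levels differed.

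The STAT3 and C/EBP list had 3 of 28 measured genes higher and 15 lower in VISTA KO (median log2 ratio -0.39), and 3 of 28 higher and 13 lower in WT (median -0.27). Stat3 was at 128 against 174 CPM in VISTA KO and 119 against 154 CPM in WT, and Socs3, its feedback inhibitor, at 264 against 352 CPM in VISTA KO and 151 against 265 CPM in WT. Il6, a cytokine that acts through STAT3, was at 7.36 against 30.3 CPM in VISTA KO and 4.05 against 16.7 CPM in WT. All 3 were lower in members of both libraries. Bcl2l1, the survival protein BCL-XL and a known STAT3 target, was higher, with log2 ratios of 1.19 in VISTA KO and 1.49 in WT. Cebpb, a factor of suppressor cell development, did not pass the rule, at 1952 against 2096 CPM in VISTA KO and 2170.1 against 2291 CPM in WT. Among myeloid transcription factors Cebpe, a factor of granulocyte precursors, was at 19.002 against 6.29 CPM in VISTA KO and 36.5 against 17.1 CPM in WT.

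Interferon and antigen presentation genes were flat or lower in members. Interferon-gamma induced genes had 2 of 25 measured genes higher and 12 lower in VISTA KO (median log2 ratio -0.41), and 3 of 25 higher and 10 lower in WT (median -0.23). MHC class II genes had 1 of 14 measured genes higher and 6 lower in VISTA KO (median log2 ratio -0.30), and 0 of 14 higher and 7 lower in WT (median -0.35), and the WT median turned to 0.02 among barcodes with at least 2 Ly6c2 UMIs. Type I interferon genes had 1 of 27 measured genes higher and 16 lower in VISTA KO (median log2 ratio -0.37), and 5 of 27 higher and 3 lower in WT (median -0.05). IL-1 and NF-kappaB feedback genes had 5 of 25 measured genes higher and 13 lower in VISTA KO (median log2 ratio -0.33), and 3 of 25 higher and 11 lower in WT (median -0.32). Members are deeper than Arg1-zero barcodes, and among barcodes of 3000 to 10000 UMIs the VISTA KO medians were -0.03 for the IL-1 and NF-kappaB list and -0.02 for MHC class II, and the WT medians -0.18 and -0.39. The lower VISTA KO medians of these lists thus did not hold at like depth. In both libraries Irf1, Gbp3, Gbp5, Relb, Nfkb1, Nfkb2, Birc3 and Tnfaip3 were among the lower ones, and Il1a was higher. Among suppressive mediators, Cd274 (PD-L1) was at 200.2 CPM in Arg1-high against 137 CPM in Arg1-zero barcodes of VISTA KO (log2 ratio 0.55, 0.41 to 0.68), and 163 against 105 CPM in WT (0.65, 0.50 to 0.79), and the whole list had 12 of 28 measured genes higher and 3 lower in VISTA KO (median log2 ratio 0.23), and 13 of 28 higher and 4 lower in WT (median 0.19). Cell cycle genes had 1 of 17 measured genes higher and 8 lower in VISTA KO (median log2 ratio -0.41), and 1 of 20 higher and 15 lower in WT (median -1.21), with Top2a, Birc5 and Ube2c lower in both. The cell cycle median in WT was -0.63 without barcodes holding RNA of other cell types, which the WT Arg1-zero sum held more of, and -0.81 at 3000 to 10000 UMIs; in VISTA KO it was -0.20 at that depth. Genes of tissue dissociation and heat shock, a sign of handling, had 3 of 20 measured genes higher and 10 lower in VISTA KO (median log2 ratio -0.30), and 3 of 20 higher and 10 lower in WT (median -0.30); their part in these ratios was not tested.

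Along Arg1 the summed levels of some genes changed by degrees, and those of Egln3 and Hmox1 moved most at the limit of the rule in VISTA KO. Among barcodes of 3000 to 10000 UMIs that passed every other limit, Bnip3 in bins of 0, 1 to 3, 4 to 9, 10 to 29 and 30 or more Arg1 UMIs was at 90.3, 128, 206, 275 and 418 CPM in VISTA KO and 101, 173, 258, 347 and 441 CPM in WT. Hilpda was at 51.4, 73.4, 165, 243 and 391 CPM in VISTA KO and 75.6, 110.2, 201, 371 and 587 CPM in WT. Ccl7 was at 154, 339, 793, 1149.7 and 2172 CPM in VISTA KO and 219, 305, 979, 1759 and 2986 CPM in WT. These 3 increased in every step of both libraries. Slc7a2 was at 11.6, 12.2, 42.7, 60.9 and 144 CPM in VISTA KO and 4.21, 8.89, 16.4, 27.5 and 55.5 CPM in WT. Ifitm6 decreased in every step, with 475, 356, 160.0, 127 and 61.6 CPM in VISTA KO and 510.2, 399, 178, 139 and 105 CPM in WT. In VISTA KO Egln3 was at 8.23, 12.8, 14.1, 45.99 and 48.5 CPM and Hmox1 at 86.5, 95.5, 164, 417 and 438 CPM, with the widest step between 4 to 9 and 10 to 29 Arg1 UMIs. The Egln3 level at 4 to 9 Arg1 UMIs rested on 26 UMIs. Hmox1 RNA lay in few barcodes: the tenth of VISTA KO members with the most UMIs held 75.6% of it, and the median member had 0 CPM. In WT Egln3 was at 10.5, 13.9, 27.3, 53.6 and 83.3 CPM and Hmox1 at 78.8, 191, 254, 306 and 348 CPM. Hmox1 in WT had no such step, and Egln3 in WT increased at the limit and in the steps beside it. Ly6c2 was highest in the middle bin, 4 to 9 Arg1 UMIs, with 3553, 3909.6, 4108, 3317 and 2633 CPM in VISTA KO and 3362, 4466, 5160.2, 4543 and 3280.3 CPM in WT.

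**Figure D3:**
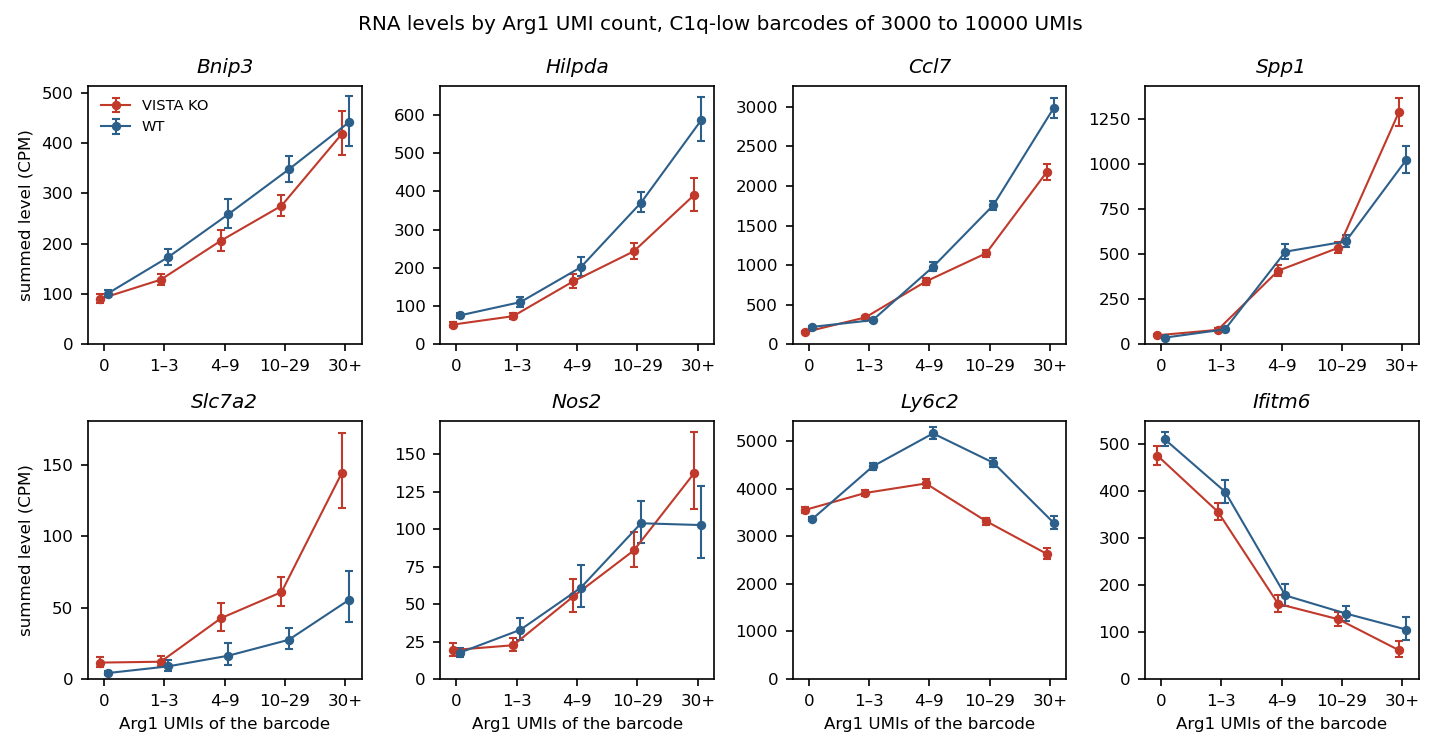
Summed level (CPM, linear axes from 0) of 8 genes by the Arg1 UMI count of the barcode, in barcodes of 3000 to 10000 UMIs that passed the other limits; VISTA KO in red, WT in blue, bars are exact 95% Poisson intervals. Bnip3, Hilpda and Ccl7 increase with Arg1 in both libraries, Ifitm6 decreases, and Ly6c2 peaks at 4 to 9 Arg1 UMIs; the 2 bins on the right are members.

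Among themselves members differed in how evenly a gene was spread over barcodes. The tenth of members with the most UMIs of a gene, 76 barcodes in VISTA KO and 64 in WT, held 25.2% and 25.04% of Arg1 UMIs and 35.7% and 33.5% of Bnip3 UMIs. They held 59.7% and 54.2% of Hilpda UMIs and 59.2% and 58.7% of Ccl7 UMIs. A Mmp12 UMI was found in 87 VISTA KO and 44 WT members. The few members without a Ly6c2 UMI, 34 in VISTA KO and 23 in WT, had 3029 and 1913 CPM of Spp1 and 679.7 and 612 CPM of Hilpda, against 705 and 679 CPM of Spp1 over all members. The genes with the highest Spearman correlation with Arg1 over members, in CPM and by the smaller value of both libraries, were Mif (0.31 in VISTA KO and 0.32 in WT), Pgk1 (0.31 and 0.31), Srgn (0.30 and 0.35), Gapdh (0.23 and 0.26), Gpi1 (0.22 and 0.22) and Basp1 (0.23 and 0.22), of 3734 genes compared over 759 and 645 barcodes. Srgn encodes serglycin, a proteoglycan of granules. All share the barcode's depth, with which Arg1 CPM had a correlation of -0.44 in VISTA KO and -0.45 in WT. Ly6c2 had -0.03 and -0.04 with Arg1.

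Set against Arg1-high barcodes with more than 2 C1q UMIs, a comparison added after the data were seen, members held more monocyte RNA and less macrophage RNA. These barcodes numbered 3066 in VISTA KO and 1176 in WT, at median depths of 7429 and 7333 UMIs. At 1.5-fold, 48 genes (0.528%) were higher and 191 (2.10%) lower in VISTA KO members, and 51 (0.694%) and 229 (3.11%) in WT. By the rule for lists 2.31% of genes were higher and 4.13% lower in VISTA KO, and 2.45% and 7.15% in WT. The monocyte list had 6 of 20 higher and 0 lower in VISTA KO (median 0.26) and 12 of 20 higher and 0 lower in WT (median 0.40). The macrophage list had 0 of 21 higher and 12 lower in VISTA KO (median -0.35) and 0 of 21 higher and 14 lower in WT (median -0.71). Since both sets are cut by C1q, these lists describe the cut. Prdx6, a peroxidase, was at 746 against 494 CPM in VISTA KO (log2 ratio 0.59, 0.54 to 0.65) and 1245 against 695 CPM in WT (0.84, 0.79 to 0.90). Cebpe was at 19.002 against 10.4 CPM in VISTA KO (log2 ratio 0.88, 0.49 to 1.23) and 36.5 against 20.8 CPM in WT (0.82, 0.49 to 1.13). Folr2, the folate receptor of resident macrophages, was at 13.8 against 48.4 CPM in VISTA KO (log2 ratio -1.79, -2.22 to -1.43) and 24.3 against 92.2 CPM in WT (-1.91, -2.25 to -1.61), and Ccl8, a monocyte-attracting chemokine, at 46.6 against 223 CPM in VISTA KO (log2 ratio -2.25, -2.47 to -2.06) and 5.13 against 108 CPM in WT (-4.32, -5.13 to -3.75).

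Of the hypoxia genes, most did not pass the rule between these sets, which share high Arg1: 5 of 35 higher and 1 lower in VISTA KO (median 0.16) and 7 of 35 higher and 2 lower in WT (median 0.16). The shares that were higher are above the 2.31% and 2.45% of all genes. Within barcodes of more than 2 C1q UMIs, Arg1-high against Arg1-zero gave 26 of 35 hypoxia genes higher and 0 lower in VISTA KO (median 0.88) and 28 of 35 higher and 1 lower in WT (median 0.92), where 7.38% and 7.61% of all genes were higher and 10.9% and 8.34% lower by the same rule. Bnip3 was at 256 CPM in VISTA KO and 290.4 CPM in WT in the C1q-holding Arg1-high barcodes, close to the members' 297 and 357 CPM. Nos2 was at 92.9 against 68.6 CPM in VISTA KO (log2 ratio 0.44, 0.28 to 0.60) and 94.8 against 54.96 CPM in WT (0.79, 0.59 to 0.98), higher in members of both libraries. Cell cycle genes had 0 of 20 higher and 8 lower in VISTA KO (median -0.51) and 0 of 18 higher and 11 lower in WT (median -1.03).

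Between the libraries, members of VISTA KO held more MHC class II and NF-kappaB feedback RNA and less of part of the hypoxia list and of the CCR2 ligands. At 1.5-fold 280 of 6060 genes (4.62%) were higher and 84 (1.39%) lower in VISTA KO members. Scaled by the median gene ratio, the split was 203 higher and 118 lower; the median log2 ratio over all genes was 0.10. In Arg1-zero barcodes 514 of 7749 (6.63%) were higher and 232 (2.99%) lower, and 15.9% and 8.38% by the rule for lists. By the rule for lists 11.0% of genes were higher and 4.13% lower in members. With 1 pool per genotype, genotype and pool cannot be told apart.

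**Figure D4:**
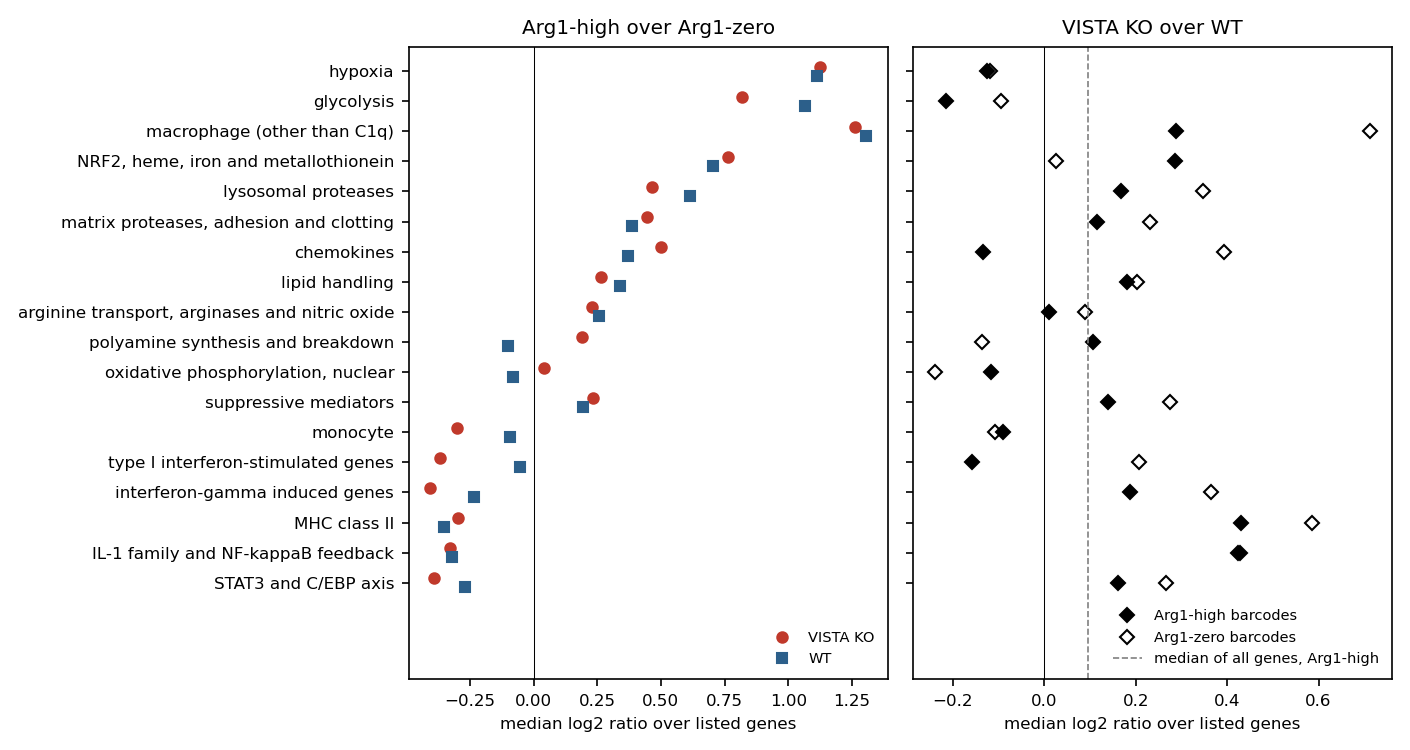
Median log2 ratio over the measured genes of 18 lists. Left, Arg1-high over Arg1-zero barcodes, VISTA KO as circles and WT as squares; right, VISTA KO over WT in Arg1-high (filled) and Arg1-zero (open) barcodes, with the median of all genes in Arg1-high barcodes, 0.10, as a dashed line. Hypoxia, glycolysis and macrophage lists lie highest on the left, while on the right MHC class II and IL-1 lists lie at 0.43 in members.

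The MHC class II list had 8 of 14 measured genes higher and 0 lower in VISTA KO (median log2 ratio 0.43); in Arg1-zero barcodes it had 9 of 15 higher and 0 lower (median 0.58). Among barcodes of 3000 to 10000 UMIs the median in members was 0.77. H2-Aa was at 2758 CPM in VISTA KO and 891 CPM in WT members (log2 ratio 1.63, 1.57 to 1.69), H2-Eb1 at 2459 CPM in VISTA KO against 799 CPM in WT, and Cd74, the invariant chain, at 7769 CPM in VISTA KO against 3312 CPM in WT. Ciita, the factor that switches on these genes, was at 52.5 CPM in VISTA KO against 24.6 CPM in WT. An H2-Aa UMI was found in 89.7% of VISTA KO and 53.6% of WT members, against 56.4% and 12.97% of NK barcodes at median depths of 2556 and 2279.5 UMIs. NK barcodes should lack H2-Aa, and the part of such stray RNA, free or from doublets, in the difference was not tested. The class I genes H2-Q7 (444 CPM in VISTA KO against 139 CPM in WT) and H2-Q6 (90.5 CPM in VISTA KO against 20.8 CPM in WT) are near copies, and their counts may be split.

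IL-1 and NF-kappaB feedback genes had 16 of 25 measured genes higher and 1 lower in VISTA KO (median log2 ratio 0.43), and in Arg1-zero barcodes 14 of 25 higher and 2 lower (median 0.42). Il1rn, the IL-1 receptor antagonist, was at 277 CPM in VISTA KO and 141 CPM in WT members (log2 ratio 0.97, 0.82 to 1.12). Il1b was at 1329.6 CPM in VISTA KO against 1064 CPM in WT (log2 ratio 0.32), which did not pass the rule. Bcl2a1d, a survival protein, was at 84.1 CPM in VISTA KO against 22.96 CPM in WT, with reads possibly shared with Bcl2a1b. Pdcd1lg2 (PD-L2) was at 43.5 CPM in VISTA KO and 12.4 CPM in WT members (log2 ratio 1.78, 1.33 to 2.31). Of the interferon-gamma induced genes 7 of 25 were higher and 0 lower in VISTA KO members (median log2 ratio 0.19), and 14 of 25 higher and 0 lower in Arg1-zero barcodes (median 0.37). Cxcl9, a T cell attractant of that list, was at 611 CPM in VISTA KO against 266 CPM in WT, and Ccl5 at 1596 CPM in VISTA KO and 487 CPM in WT members (log2 ratio 1.71, 1.64 to 1.79). Ccl8 was at 46.6 CPM in VISTA KO against 5.13 CPM in WT. Against these, the CCR2 ligands were lower in VISTA KO members, Ccl2 at 3284 CPM in VISTA KO against 4904 CPM in WT and Ccl7 at 1353 CPM in VISTA KO against 2013 CPM in WT, and so was the neutrophil attractant Cxcl2, at 367 CPM in VISTA KO against 753 CPM in WT.

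The STAT3 and C/EBP list had 8 of 28 measured genes higher and 0 lower in VISTA KO (median log2 ratio 0.16), and in Arg1-zero barcodes 10 of 28 higher and 1 lower (median 0.27). Socs3 was at 264 CPM in VISTA KO and 151 CPM in WT members (log2 ratio 0.81, 0.66 to 0.96), and Stat3 itself at 128 CPM in VISTA KO against 119 CPM in WT (log2 ratio 0.11). The polyamine list had 2 of 18 measured genes higher and 0 lower in VISTA KO (median log2 ratio 0.11): Atp13a2 at 80.99 CPM in VISTA KO and 43.2 CPM in WT members (log2 ratio 0.90, 0.63 to 1.19), and Mat2a, which makes S-adenosylmethionine, a precursor in spermidine synthesis, at 59.1 CPM in VISTA KO against 44.03 CPM in WT. Odc1 was at 46.8 CPM in VISTA KO against 46.2 CPM in WT and Srm, spermidine synthase, at 12.8 CPM in VISTA KO against 11.1 CPM in WT. Of the arginine list, Slc7a2 was at 79.8 CPM in VISTA KO and 32.7 CPM in WT members (log2 ratio 1.28, 0.98 to 1.60), Qdpr, which renews tetrahydrobiopterin, at 21.9 CPM in VISTA KO against 12.97 CPM in WT and Gch1 at 97.9 CPM in VISTA KO against 125 CPM in WT, and the list had 2 of 17 measured genes higher and 1 lower in VISTA KO (median log2 ratio 0.01). By the rule for lists 11.0% of all genes were higher and 4.13% lower in VISTA KO members. The counts of higher genes in the polyamine and arginine lists were near that share. Nos2 did not differ beyond counting error, at 92.9 CPM in VISTA KO and 94.8 CPM in WT members (log2 ratio -0.03, -0.24 to 0.18), and Arg1 was chosen to be high in both.

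The hypoxia list had 2 of 34 measured genes higher and 9 lower in VISTA KO (median log2 ratio -0.12), against 5 of 34 higher and 7 lower (median -0.12) in Arg1-zero barcodes. Hilpda was at 263 CPM in VISTA KO and 393 CPM in WT members (log2 ratio -0.58, -0.69 to -0.46), Selenbp1 at 53.2 CPM in VISTA KO against 79.96 CPM in WT and Egln3 at 44.9 CPM in VISTA KO against 56.2 CPM in WT. Vegfa was higher, at 160.1 CPM in VISTA KO against 112 CPM in WT. Glycolytic genes had 1 of 19 measured genes higher and 3 lower in VISTA KO (median log2 ratio -0.21). Of these, Eno1 was at 439 CPM in VISTA KO against 295 CPM in WT and its copy Eno1b at 9.74 CPM in VISTA KO against 31.9 CPM in WT, so that reads of both may be split differently in each library. Monocyte genes had 1 of 20 measured genes higher and 6 lower in VISTA KO (median log2 ratio -0.09), with Vcan at 80.5 CPM in VISTA KO against 153 CPM in WT, and macrophage genes had 7 of 21 measured genes higher and 3 lower in VISTA KO (median log2 ratio 0.29), with Apoe at 5578 CPM in VISTA KO against 3094 CPM in WT. Apoe UMIs also occurred in NK barcodes, at 1276 CPM in VISTA KO and 370.3 CPM in WT NK barcodes. Retnla, an IL-4 induced secreted protein, was at 2.61 CPM in VISTA KO against 83.2 CPM in WT, and Isg15, an interferon-induced ubiquitin-like protein, at 928 CPM in VISTA KO against 2107 CPM in WT.

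Many of the genes furthest apart between the libraries lie near one another on chromosome 1. Ifi202b was at 579 CPM in VISTA KO and 2.43 CPM in WT members (log2 ratio 7.74, 6.97 to 9.03), while its relatives Ifi213 (3.09 CPM in VISTA KO against 236 CPM in WT), Ifi206 (17.6 CPM in VISTA KO against 208 CPM in WT), Ifi211 (167 CPM in VISTA KO against 567 CPM in WT) and Ifi205 (104 CPM in VISTA KO against 344 CPM in WT) went the other way; this family of interferon-induced genes has close copies, and counts may be split between them. Fcrla was at 47.5 CPM in VISTA KO against 0.270 CPM in WT, Ppfia4 at 32.3 CPM in VISTA KO against 0.810 CPM in WT and Chil1, a chitinase-like protein, at 0.475 CPM in VISTA KO against 148 CPM in WT. Of the 12 highest and 12 lowest genes, 11 lie on chromosome 1. Ptprc, which encodes CD45 and so the CD45.1 and CD45.2 forms used to separate the donors, lies there at chr1:138062859-138175756. Within 40 Mb of it, a distance chosen after the values were seen, 19 genes were higher and 15 lower of 158 (21.5%), against 3.52% of 199 genes on the rest of the chromosome and 5.60% of 5677 on the others. In Arg1-zero barcodes the shares were 21.6%, 10.7% and 9.11%. The genotype at Vsir and the CD45 form of the donor cannot be told apart in this design.

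**Figure D5:**
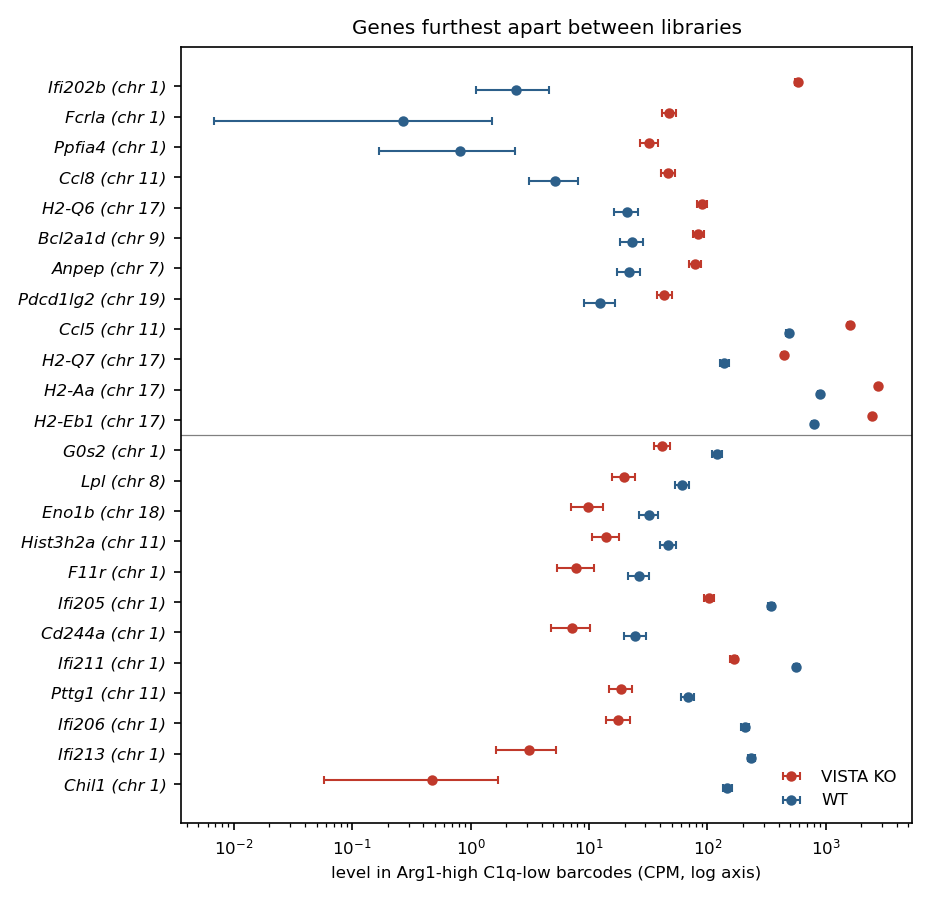
Levels (CPM, log axis) in Arg1-high C1q-low barcodes of the 12 genes with the highest and, under the line, the 12 with the lowest VISTA KO over WT ratio; VISTA KO in red above WT in blue, bars are exact 95% Poisson intervals. The chromosome of each gene is in brackets, and 11 of the 24 lie on chromosome 1, among them Ifi202b at the top and Chil1 at the bottom.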

How the data were processed

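The authors deposited, for every barcode, raw UMI counts of 32285 genes and of 3 surface antibody tags, written by Cell Ranger 5.0.0 per the file headers; the submitters' processing notes name mm10 and Seurat 4.0. Barcodes with at least 200 genes, 500 UMIs and at most 10% mitochondrial UMIs were kept, and no doublet caller was run. Counts were summed over the barcodes of a set and divided by their total, as CPM (counts per 1000000). A log2 ratio had 1 UMI added on each side, and its 95% interval is the exact conditional binomial one. Levels have exact Poisson intervals and shares exact Clopper-Pearson ones, all covering counting error only. Genes from 100 UMIs over both sets counted at 1.5-fold with an interval that leaves out 1, and listed genes from 20 UMIs at a log2 ratio of 0.32. The 14 genes that set the gates stayed out of these counts. With 1 library per genotype no test was run and no p-value is given. On simulated data with known fold changes the ratios and intervals were tested as well. The simulated counts were Poisson draws, as the intervals assume, without spread between barcodes. That test therefore does not cover genes whose UMIs lie in few barcodes.

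The members, the 33 lists (11 of cell type markers, 22 of programmes) and the rules were chosen with earlier results of these data known. Clec7a, Cxcl11, Mx1 and Mx2 were listed but had no row by that name. Genes are named by rank (the 15 highest and 12 lowest by the smaller ratio of the libraries, 12 each way between libraries, 10 each way against barcodes with C1q, and the 6 closest correlates of Arg1) or as list members. Other named genes, H19 among them, were chosen after their values were seen, and a few that the rules name are not reported here. Gene positions and promoters are RefSeq's for GRCm38.p6. Alternatives changed the Arg1 and C1q gates, the depth range, the cell filter, the denominator, the scaling, the weighting of barcodes, the UMI minimum, barcodes over 20000 UMIs, barcodes with RNA of other cell types and barcode sequences found in both libraries; each barcode was also thinned to 2000 UMIs for shares. A limit of 2 Ly6c2 UMIs and the contrast with C1q-bearing barcodes were added after seeing the data. Python 3.11.15, numpy 2.4.6, scipy 1.17.1, pandas 2.3.3 and matplotlib 3.10.9 were used.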

Additional observations from a re-analysis of the deposited data

Results flagged for a closer look

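For a pair of genes the ratio of Arg1-high over Arg1-zero barcodes went opposite ways in the libraries. H19, an imprinted noncoding RNA, stood at 17.8 CPM in Arg1-high and 8.22 CPM in Arg1-zero barcodes of VISTA KO, a log2 ratio of 1.11. In WT it was at 5.94 CPM in Arg1-high and 11.7 CPM in Arg1-zero barcodes, a log2 ratio of -0.93. Odc1, the ornithine decarboxylase that starts polyamine synthesis, stood at 46.8 CPM in Arg1-high and 34.3 CPM in Arg1-zero barcodes of VISTA KO, a log2 ratio of 0.45. In WT it was at 46.2 CPM in Arg1-high and 59.5 CPM in Arg1-zero barcodes, a log2 ratio of -0.36. With 1 library for each genotype, the difference between the libraries' ratios was not tested.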

How the results depend on the processing

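The share of kept barcodes that met the rule moved with the gates. It was 8.03% in VISTA KO and 9.38% in WT from 5 Arg1 UMIs, 2.29% and 2.97% from 20, and 7.25% and 7.91% from 20 Arg1 UMIs per 10000 UMIs. It was 1.28% and 3.84% with a C1q sum of 0, 7.01% and 8.63% in barcodes of 3000 to 10000 UMIs, and 5.58% and 7.45% among barcodes with 2 Ly6c2 UMIs, a limit chosen after seeing the data. The stricter cell filter gave 5.68% in VISTA KO, and leaving out barcodes with RNA of other cell types gave 6.83% in WT. In each of these 6 gate and depth settings the share was lower in VISTA KO than in WT. With a C1q sum of 0, 290 genes were higher and 329 lower in Arg1-high than in Arg1-zero barcodes of VISTA KO, among 3634 genes with enough UMIs. The mean of per-barcode CPM gave 779 lower genes there. Genes from 20 UMIs, a larger set of genes by construction, gave 875 higher and 797 lower in VISTA KO, 1041 lower in WT, and 550 higher and 153 lower between the Arg1-high barcodes of VISTA KO and WT. The WT median of the chemokine list turned to -0.0486 with the mean of per-barcode CPM, and that of the MHC class II list to 0.0220 with the Ly6c2 limit; the cause was not tested. None of 2436 recomputed gene ratios and 2 of 1173 list medians were counted as turned round, and 435 gene ratios moved beyond their counting interval. Sign changes of values that were small in the main setting were left out of these counts. The IL-4 and STAT6 list median in VISTA KO, for example, was negative in the main setting. It was 0.34 among barcodes of 3000 to 10000 UMIs. No paired analysis was possible because a single library stood for each genotype. Thinning to 2000 UMIs moved 35 of 40 shares of barcodes with a UMI.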

Other observations

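The IL-4 and STAT6 list of alternative activation, which includes Mrc1 and Retnla, went both ways in Arg1-high barcodes relative to Arg1-zero ones. In VISTA KO 8 of 21 listed genes were higher and 6 lower, and in WT 8 of 22 were higher and 7 lower. The list medians were -0.01 in VISTA KO and 0.06 in WT, and 0.34 and 0.28 among barcodes of 3000 to 10000 UMIs. The mannose receptor Mrc1, the scavenger receptor Msr1 and the transglutaminase Tgm2 were higher in both libraries, while Irf4, Ccl17 and Ccl22, genes of dendritic cells as well, were lower in both. The list of myeloid transcription factors had 8 of 32 genes higher and 12 lower in VISTA KO, and 6 higher and 9 lower in WT. Maf, Mitf and Bhlhe40 were higher in both libraries, and Klf2, Nr4a1, Runx1 and Stat3 lower in both. Of the receptor list, Ccr1, Fpr2, C5ar1 and C3ar1, which bind chemokines, formyl peptides and complement fragments, were higher in both.

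Shares of barcodes in a few expression states stood as follows. Ifit1, Ifit2 and Ifit3 summed to 5 UMIs or more in 35.0% of Arg1-high and 28.8% of Arg1-zero barcodes of VISTA KO, and in 37.8% of Arg1-high and 33.2% of Arg1-zero barcodes of WT. Chil3, Vcan and Plac8, genes of early monocytes, summed to 30 UMIs or more in 33.9% of Arg1-high and 33.4% of Arg1-zero barcodes of VISTA KO, and in 60.9% of Arg1-high and 55.6% of Arg1-zero barcodes of WT. The share thus differed more between the libraries than between the Arg1 sets. Arg1-high barcodes are deeper than Arg1-zero ones, and these shares were not thinned. The proliferation genes Mki67 and Top2a summed to 2 UMIs or more in 3 of 759 Arg1-high barcodes of VISTA KO and in 6 of 645 of WT.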
